A study of Mus musculus with 19 samples.

Results

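Cish, Socs1, Socs2, Socs3, Pim1, Pim2, Bcl6 and Osm are target genes of the transcription factor STAT5 that feed back on cytokine signalling or favour cell survival. They were chosen by name, and each was measured by the RefSeq accession with the highest mean count over all libraries. All 8 genes had an accession among the 33862 accessions of the deposited count table. A filter on low counts kept 7 of them for testing among 11830 accessions in all, and Socs1 did not pass it.

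RNA was sequenced from 19 libraries of primary, uncultured lin-Sca+cKit+ cells (LSK cells, the sorted population that holds hematopoietic stem cells and early progenitors) of C57BL/6 mice. The WT group (4 libraries: wt1, wt2, wt3, wt4) came from untreated wild-type mice. Mice with acute myeloid leukemia and the genotype Idh2 R140Q;Flt3-ITD gave 3 libraries after vehicle (V3, V3-2, V9), called IDH2-FLT3 vehicle here, and 4 after AG-221 (AG1, AG12, AG13, AG8), an oral inhibitor of mutant IDH2. Mice with acute myeloid leukemia and a genotype that the sample labels spell Tet2-/-;Flt3-IDT gave 4 libraries after vehicle (V1, V19, V5, V5-2), called TET2-FLT3 vehicle, and 4 after 5-Aza (AZ10, AZ11, AZ16, AZ17), the hypomethylating drug 5-azacytidine, for which the study's description also writes decitabine. The AG-221 mice were gavaged 2 times daily over 4 to 5 weeks. The dose was 100 mg/kg alone or 40 mg/kg in the combination study, and the labels do not say which dose a library had. The 5-Aza mice received injections of 5 mg/kg through 4 cycles of 21 days, with 5 injection days per cycle. All 15 leukemic libraries carry a Flt3 internal tandem duplication, so none of these groups separates Flt3-ITD from its partner allele, and no Flt3 inhibitor was given. Ages, the number of animals behind a library and what drives each engineered allele are not given in the sources used here. The p-values therefore measure the spread between libraries, which may be partly technical.

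STAT5 is phosphorylated by JAK kinases below cytokine receptors, and directly or indirectly by FLT3 kinase carrying an internal tandem duplication. The active dimer enters the nucleus and turns on genes of inhibitors that act back on the receptors, among them CIS (encoded by Cish) and the SOCS proteins, together with the PIM survival kinases. Transcripts of these genes are widely read as a sign of STAT5 activity in FLT3-ITD leukemia, although other STAT factors and other cytokines also act on several of them.

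STAT dimers bind the 9-base core TTCNNNGAA, which is its own reverse complement, so that a match on one strand is a match on both. RefSeq promoter windows of GRCm38.p6, from 250 bases before to 50 bases after a transcript start, were available for 6 of the 8 genes (8 windows, with 2 each for Pim1 and Bcl6), and the core was found in 4 windows of 3 genes. It was present in 8.30% of all 32851 windows, and 0.457% of them held at least 2 matches. The 4 stretches with matches are shown because they carry the core that STAT factors recognise. Cores are in capitals and flanking bases in lower case, each 5′ to 3′ on the strand of the gene.
Cish, chr9:107296659-107296678, plus strand: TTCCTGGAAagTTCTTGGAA
Socs3, chr11:117969502-117969530, minus strand: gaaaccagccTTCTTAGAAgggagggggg
Bcl6, first window, chr16:23981353-23981461, minus strand: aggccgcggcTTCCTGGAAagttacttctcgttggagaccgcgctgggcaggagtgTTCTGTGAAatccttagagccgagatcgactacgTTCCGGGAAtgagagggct
Bcl6, second window, chr16:23988952-23988980, minus strand: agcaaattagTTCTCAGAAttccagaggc

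The Cish pair begins at bases 1 and 12 of the transcript, in a non-coding exon of the GENCODE M21 annotation, with 2 bases between the cores. The Socs3 core begins at base -154 from the start and lies in an annotated intron. In the first Bcl6 window the cores begin at -168, -122 and -88, also within an intron. The single core of the second window begins at -118, outside annotated Bcl6 transcripts, and transcripts of other genes were not checked. Only these letters were searched, and factor binding was not measured in these data.

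Library totals ran from 9635795 to 20383132 counts, and no pair of libraries in a group was a copy (lowest chi-square per accession 15.9). V3-2 and V5-2 were the deepest libraries, and both also stood apart in the level of Idh2, at 544 and 526 counts per 1000000 counts (CPM) against 123 to 403 CPM in the other libraries. Their names extend V3 and V5, and the labels do not say whether animals were shared, so results that rest on them are also given without them. Of the markers of the sort, Ly6a (Sca-1) had 0 counts in every library and Kit had 4 in all, both genes with several accessions, so the gate could not be checked on them. Of the accessions of such genes, 61.6% had 0 counts throughout, against 18.7% where a gene had 1 accession. Cd34 was detected in every group, at 2.32 to 30.2 CPM. Tet2 was counted at 36.5 to 156 CPM in the libraries labelled Tet2-/-, against 117 to 145 CPM in WT, and a sum over the accession does not show which exon was deleted.

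Cells of TET2-FLT3 vehicle mice had the broadest rise of the targets over WT. Cish rose 6.30-fold, Pim2 4.96-fold, Pim1 4.74-fold and Osm 1.88-fold, and Socs2 went from near the detection limit in WT to a mean of 13.1 CPM. In IDH2-FLT3 vehicle cells Socs2 and Cish rose, and the libraries of that group differed widely from each other. In AG-221 and in 5-Aza libraries, Cish, Socs2 and Pim2 were above WT. Within a line, AG-221 libraries had more Socs3 and Pim2 than their vehicle libraries, and 5-Aza libraries had less Bcl6.

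Genes are called here at a Benjamini-Hochberg adjusted p under 0.05 in edgeR's quasi-likelihood test, fitted over all 19 libraries. In TET2-FLT3 vehicle against WT, 5 of 7 members tested rose, where 4.43% of all accessions were called higher and 5.71% lower. In IDH2-FLT3 vehicle against WT, 2 of 7 rose, where the background was far higher at 10.1% called higher and 10.4% lower. With AG-221 against WT, 3 rose, where 1.04% of accessions were called higher and 1.67% lower. With 5-Aza against WT, 3 rose, where 0.617% were called higher and 1.10% lower. The median log2 fold change of the members was 2.24 in TET2-FLT3 vehicle, 1.72 with AG-221, 1.09 with 5-Aza and 0.91 in IDH2-FLT3 vehicle, beside medians over all accessions of 0.07, 0.01, -0.03 and 0.02. These 4 comparisons share the WT libraries and are not independent of each other. Markers of other lineages also differed between WT and leukemic cells. The 9 B cell markers, with Ebf1 at 0 in every leukemic group, summed to 489 to 624 CPM in WT and 48.0 to 145 CPM over the leukemic libraries. The 6 megakaryocyte markers, with Gp1bb at 0 in WT, AG-221 and 5-Aza, summed to 260.2 to 315 CPM in WT, 43.6 to 77.0 in TET2-FLT3 vehicle, 49.6 to 87.4 in IDH2-FLT3 vehicle, 79.0 to 180.0 with AG-221 and 93.8 to 237 with 5-Aza. The 9 erythroid markers, with Hba-a1 and Hbb-b1 at 0, summed to 103 to 215 CPM in WT and 5.67 to 75.0 CPM over the leukemic libraries. The 8 dendritic cell markers, with Clec9a at 0, were higher in TET2-FLT3 vehicle, at 428 to 808 CPM, than in WT, at 217 to 292 CPM. The part of these markers in the differences of the members from WT was not tested. LSK cells are a mixture, and in bulk RNA a change in the share of a cell type and a change in RNA per cell cannot be told apart.

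**Figure D1:**
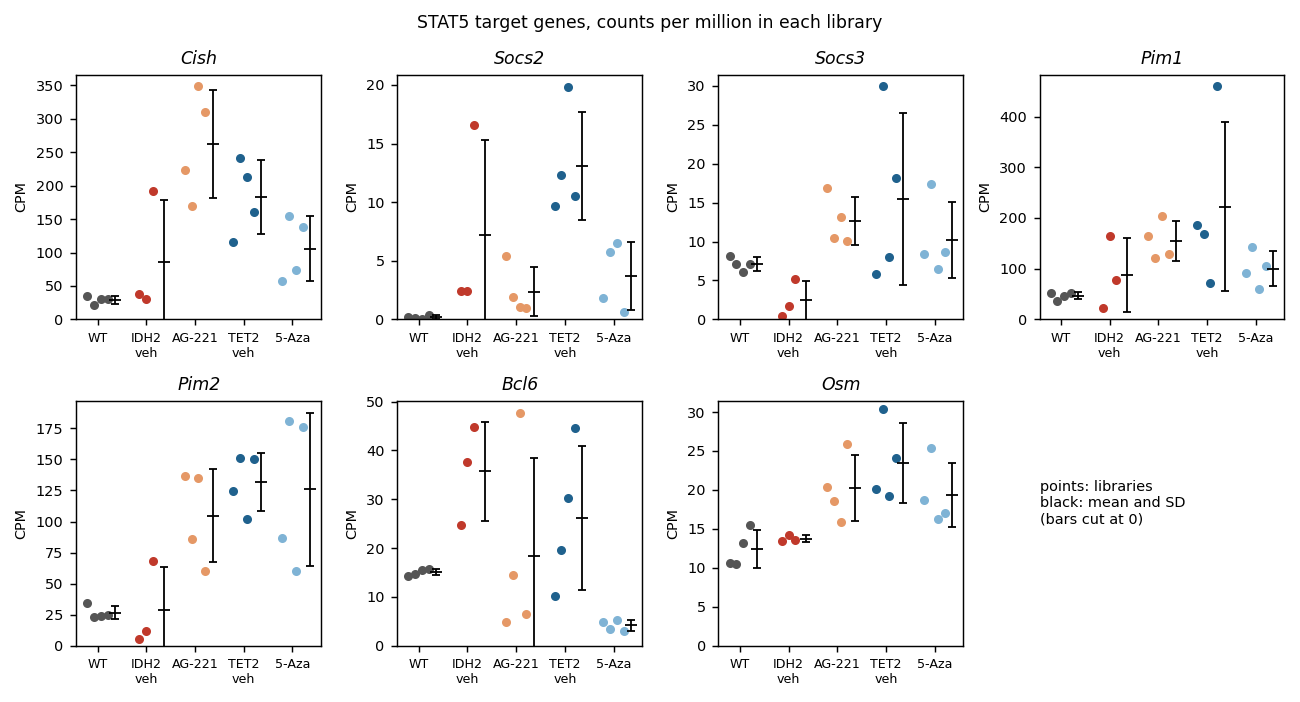
Levels of the 7 tested members in CPM (linear axes from 0), 1 panel per gene, with 1 point per library, and the mean and SD of each group in black beside the points. Cish is above every WT library in all AG-221, TET2-FLT3 vehicle and 5-Aza libraries, while the 3 IDH2-FLT3 vehicle libraries are split for Cish, Socs2 and Pim2, with V9 high.

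Cish encodes CIS, which occupies phosphotyrosine sites on activated receptors and so competes with STAT5. Values by library are given here in the order of the names above. Cish was at 34.2, 21.6, 29.97 and 30.2 CPM in WT and at 37.3, 30.0 and 192 CPM in IDH2-FLT3 vehicle. It was at 223, 170.4, 349 and 309.6 CPM with AG-221. TET2-FLT3 vehicle libraries had 116, 241, 213 and 161 CPM, and 5-Aza libraries 57.4, 155, 73.2 and 139 CPM. The AG-221, TET2-FLT3 vehicle and 5-Aza libraries all lay above the highest WT library, whereas in IDH2-FLT3 vehicle V3-2 lay within the WT range, V3 just above it and V9 far above. Ordered by mean, AG-221 (263 ± 81.0 CPM, SD, n = 4) came first, then TET2-FLT3 vehicle (183 ± 55.5, n = 4), 5-Aza (106 ± 47.9, n = 4), IDH2-FLT3 vehicle (86.5 ± 91.6, n = 3) and WT (29.0 ± 5.31, n = 4), and the libraries of each neighbouring pair overlapped.

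Against WT the log2 fold change of Cish was 3.18 ± 0.49 (estimate ± SE) with AG-221 (adjusted p = 8.21e-04), and 2.66 ± 0.48 in TET2-FLT3 vehicle (adjusted p = 0.00210). Both calls held in all 16 alternative analyses. With 5-Aza it was 1.87 ± 0.47 (adjusted p = 0.0456), a call that ended on leaving out any of wt1, wt2, wt3, wt4, AZ11, AZ16 or AZ17, with log2 fold changes of 1.63 to 2.01 and adjusted p up to 0.143. This call also ended with a stricter filter (0.0501) and by limma on log2(FPKM + 1) (0.0585). In IDH2-FLT3 vehicle the log2 fold change was 1.57 ± 0.49 (adjusted p = 0.0282), and this rise rested on V9. Without V9 the value was 0.20 (adjusted p = 0.728), and the call also ended without wt2, wt3 or wt4, at 1.46 to 1.62 (adjusted p up to 0.0684). A fit of the compared groups alone (0.0602) and limma on log2(FPKM + 1) (0.280) ended it too.

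Socs2 encodes an adaptor of a ubiquitin ligase that dampens growth hormone and cytokine receptors. In WT it had 9 counts in all 4 libraries together, at 0.230, 0.0755, 0 and 0.403 CPM, and IDH2-FLT3 vehicle libraries had 2.45, 2.45 and 16.6 CPM. The AG-221 values were 5.44, 1.94, 1.08 and 1.001 CPM. TET2-FLT3 vehicle libraries had 9.68, 12.3, 19.9 and 10.5 CPM, and 5-Aza libraries 1.86, 5.74, 6.53 and 0.632 CPM. Every leukemic library was above every WT library, and the TET2-FLT3 vehicle libraries were all above the 5-Aza libraries of the same line. The order of means was TET2-FLT3 vehicle (13.1 ± 4.64 CPM, SD, n = 4), IDH2-FLT3 vehicle (7.17 ± 8.17, n = 3), 5-Aza (3.69 ± 2.88, n = 4), AG-221 (2.36 ± 2.09, n = 4) and WT (0.177 ± 0.178, n = 4), with overlap between neighbours except between AG-221 and WT.

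Socs2 rose over WT in all 4 leukemic groups. The log2 fold change was 6.13 ± 0.98 in TET2-FLT3 vehicle (adjusted p = 7.34e-04) and 5.26 ± 0.98 in IDH2-FLT3 vehicle (adjusted p = 0.00115), and these calls held in all 16 and all 15 alternatives. Their sizes rest on few WT counts: without wt4 they became 6.91 and 6.00, and without V9 the IDH2-FLT3 vehicle value became 3.71. With 5-Aza the value was 4.31 ± 0.94 (adjusted p = 0.0219), and the call ended without wt1, wt2, wt3, AZ11 or AZ16 (3.89 to 4.46, adjusted p up to 0.0800), while without wt4 the value became 5.02. With AG-221 it was 3.66 ± 0.94 (adjusted p = 0.0385), and the call ended without wt1, wt2, wt3, wt4, AG1 or AG12 (2.85 to 4.39, adjusted p up to 0.134). By limma on log2(FPKM + 1), neither the 5-Aza value (0.123) nor the AG-221 value (0.374) was called. Socs2 has 4 accessions, of which the one used held 64.2% of its counts. Summed over all 4, WT libraries had 0.151 to 0.645 CPM, AG-221 libraries 2.16 to 8.66, 5-Aza libraries 2.98 to 9.38 and TET2-FLT3 vehicle libraries 11.6 to 22.9, while V3, V3-2 and V9 had 2.78, 5.96 and 20.8 CPM, so the separations held on the sum.

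Socs3 encodes an inhibitor of JAK kinases that acts on the gp130 and G-CSF receptors, and is a classical STAT3 target as well. It was at 8.12, 7.10, 6.03 and 7.17 CPM in WT and at 0.422, 1.68 and 5.21 CPM in IDH2-FLT3 vehicle. Under AG-221 its levels were 16.8, 10.4, 13.2 and 10.1 CPM. In TET2-FLT3 vehicle it was at 5.86, 29.9, 8.04 and 18.1 CPM, and 5-Aza libraries 8.33, 17.4, 6.45 and 8.66 CPM. All IDH2-FLT3 vehicle libraries were below, and all AG-221 libraries above, the whole WT range, and the TET2-FLT3 vehicle and 5-Aza libraries overlapped with WT. None of its differences from WT was called: log2 fold changes were -1.54 ± 0.63 in IDH2-FLT3 vehicle (adjusted p = 0.0851), 1.12 ± 0.55 in TET2-FLT3 vehicle (0.193), 0.83 ± 0.55 with AG-221 (0.596) and 0.52 ± 0.55 with 5-Aza (0.662). Without V9, the IDH2-FLT3 vehicle value became -2.71 and was called (adjusted p = 0.00722). With all libraries, DESeq2 called it too (-1.58, adjusted p = 0.0295). In order of mean, TET2-FLT3 vehicle (15.5 ± 11.01 CPM, SD, n = 4) was followed by AG-221 (12.6 ± 3.11, n = 4), 5-Aza (10.2 ± 4.88, n = 4), WT (7.10 ± 0.855, n = 4) and IDH2-FLT3 vehicle (2.44 ± 2.48, n = 3), and only the last pair had no overlap.

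Socs1, which encodes a further inhibitor of JAK kinases, could not be assessed. The accession used had 20 counts in 4 of the 19 libraries, the highest 14 in V5-2, and its second accession had 0 counts in all of them. Reads of genes with several accessions were poorly represented in this table, so a low count here is not a measure of low expression.

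Pim1 and Pim2 encode serine/threonine kinases that are active as soon as they are made and that phosphorylate BAD and other regulators of survival and translation. Pim1 was at 52.5, 36.5, 46.6 and 51.9 CPM in WT and at 21.5, 165 and 77.1 CPM in IDH2-FLT3 vehicle. Levels with AG-221 were 165, 120.5, 205 and 128 CPM. Values in TET2-FLT3 vehicle were 187, 169, 72.0 and 461 CPM, and 5-Aza libraries 90.6, 143, 59.7 and 106 CPM. All AG-221, TET2-FLT3 vehicle and 5-Aza libraries were above WT, while in IDH2-FLT3 vehicle V3 was below and the other libraries above. V3-2 and V5-2 had the highest Pim1 of their groups. By mean the order was TET2-FLT3 vehicle (222 ± 167 CPM, SD, n = 4), AG-221 (155 ± 38.7, n = 4), 5-Aza (99.8 ± 34.7, n = 4), IDH2-FLT3 vehicle (88.0 ± 72.6, n = 3) and WT (46.9 ± 7.38, n = 4), with every neighbouring pair overlapping. Without V3-2 and V5-2, TET2-FLT3 vehicle was at 142 ± 61.6 CPM (n = 3), below AG-221, and IDH2-FLT3 vehicle at 49.3 ± 39.3 (n = 2). Of Cish, the same omission put IDH2-FLT3 vehicle (114.7 ± 109.5) above 5-Aza (106.1 ± 47.9).

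Pim1 rose in TET2-FLT3 vehicle, by 2.24 ± 0.51 on the log2 scale (adjusted p = 0.00910), in all 16 alternatives. Without V5-2 the value was 1.66 (adjusted p = 0.0308), and without both V3-2 and V5-2 it was 1.63 (adjusted p = 0.0120). The log2 fold change of 1.72 ± 0.50 with AG-221 missed the threshold (adjusted p = 0.0701), but was called without V3-2 and V5-2 (1.71, adjusted p = 0.00990). It was 1.09 ± 0.49 with 5-Aza (adjusted p = 0.277) and 0.91 ± 0.52 in IDH2-FLT3 vehicle (adjusted p = 0.219), where it became 0.08 without V3-2 and V5-2.

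Pim2 was at 34.6, 23.4, 23.9 and 24.6 CPM in WT and at 5.65, 12.1 and 68.2 CPM in IDH2-FLT3 vehicle. With AG-221 it was at 136, 86.3, 135 and 60.5 CPM. TET2-FLT3 vehicle libraries had 124, 151, 102 and 150.2 CPM, and 5-Aza libraries 86.8, 181, 60.2 and 176 CPM. V3 and V3-2 were below every WT library and V9 above, and the AG-221, TET2-FLT3 vehicle and 5-Aza libraries were all above WT. The order of means was TET2-FLT3 vehicle (132 ± 23.5 CPM, SD, n = 4), 5-Aza (126 ± 61.6, n = 4), AG-221 (105 ± 37.4, n = 4), IDH2-FLT3 vehicle (28.7 ± 34.4, n = 3) and WT (26.6 ± 5.36, n = 4), and every neighbouring pair overlapped.

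Pim2 rose by 2.31 ± 0.53 in TET2-FLT3 vehicle (log2 fold change, adjusted p = 0.0104), in all 16 alternatives. It rose by 2.24 ± 0.53 with 5-Aza (adjusted p = 0.0342) and by 1.97 ± 0.53 with AG-221 (adjusted p = 0.0478). The 5-Aza call ended without wt1, wt2, wt3, wt4, AZ11 or AZ17 (2.01 to 2.39, adjusted p up to 0.122). The AG-221 call ended without wt1, wt2, wt3, wt4, AG1, AG12 or AG13 (1.82 to 2.12, adjusted p up to 0.156). It ended as well with a stricter filter (0.0509) and by limma on log2(FPKM + 1) (0.0539). In IDH2-FLT3 vehicle the log2 fold change was 0.10 ± 0.55 (adjusted p = 0.912, 95% interval -1.08 to 1.29). That mean joins opposite libraries: without V9 it was -1.59 and called lower (adjusted p = 0.0171).

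Bcl6 encodes a transcriptional repressor, and in lymphoid cells its gene is known as one that STAT5 represses rather than induces. It was at 14.3, 14.7, 15.5 and 15.6 CPM in WT and at 24.8, 37.7 and 44.7 CPM in IDH2-FLT3 vehicle. With AG-221 it was at 4.83, 14.6, 47.7 and 6.39 CPM. Levels in TET2-FLT3 vehicle were 10.2, 19.7, 30.2 and 44.5 CPM, and 5-Aza libraries 4.85, 3.48, 5.31 and 3.07 CPM. WT libraries were tightly grouped, all 3 IDH2-FLT3 vehicle libraries were above them and all 4 5-Aza libraries below, while the AG-221 and TET2-FLT3 vehicle libraries lay on both sides. By mean, IDH2-FLT3 vehicle (35.7 ± 10.1 CPM, SD, n = 3) was followed by TET2-FLT3 vehicle (26.2 ± 14.7, n = 4), AG-221 (18.4 ± 20, n = 4), WT (15.03 ± 0.646, n = 4) and 5-Aza (4.18 ± 1.08, n = 4), and only WT and 5-Aza had no overlap. No difference from WT was called in the fit of all groups. Log2 fold changes were 1.25 ± 0.57 in IDH2-FLT3 vehicle (adjusted p = 0.123), 0.80 ± 0.53 in TET2-FLT3 vehicle (0.343), 0.29 ± 0.53 with AG-221 (0.899) and -1.84 ± 0.56 with 5-Aza (0.0966). The 5-Aza value was called by DESeq2 (0.0149), without a filter (0.0421) and in a fit of the compared groups alone (5.03e-04), and the last also called the IDH2-FLT3 vehicle value (0.0115). The AG-221 value turned to -0.80 without AG13 (adjusted p = 0.549).

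Osm encodes oncostatin M, a secreted cytokine of the interleukin-6 family and an early STAT5 target in blood cells. It was at 10.6, 10.5, 13.2 and 15.6 CPM in WT and at 13.5, 14.2 and 13.6 CPM in IDH2-FLT3 vehicle. With AG-221 it was at 20.4, 18.6, 15.9 and 25.95 CPM. TET2-FLT3 vehicle libraries had 20.2, 30.4, 19.2 and 24.0 CPM, and 5-Aza libraries 18.8, 25.4, 16.2 and 17.1 CPM. IDH2-FLT3 vehicle libraries lay within the WT range, and the libraries of the other leukemic groups all lay above it. The order of means was TET2-FLT3 vehicle (23.5 ± 5.10 CPM, SD, n = 4), AG-221 (20.2 ± 4.24, n = 4), 5-Aza (19.4 ± 4.15, n = 4), IDH2-FLT3 vehicle (13.8 ± 0.411, n = 3) and WT (12.5 ± 2.42, n = 4), and only 5-Aza and IDH2-FLT3 vehicle, as neighbours, had no overlap. Osm rose in TET2-FLT3 vehicle by 0.91 ± 0.26 (log2, adjusted p = 0.0310), a call that ended without wt1, wt2, wt3 or V19 (0.76 to 0.94, adjusted p up to 0.0938). That call also ended without a filter (0.0945), in a fit of the compared groups alone (0.0920) and by limma on log2(FPKM + 1) (0.134). The log2 fold change was 0.70 ± 0.26 with AG-221 (adjusted p = 0.197), 0.64 ± 0.26 with 5-Aza (0.226) and 0.14 ± 0.28 in IDH2-FLT3 vehicle (0.743).

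**Figure D2:**
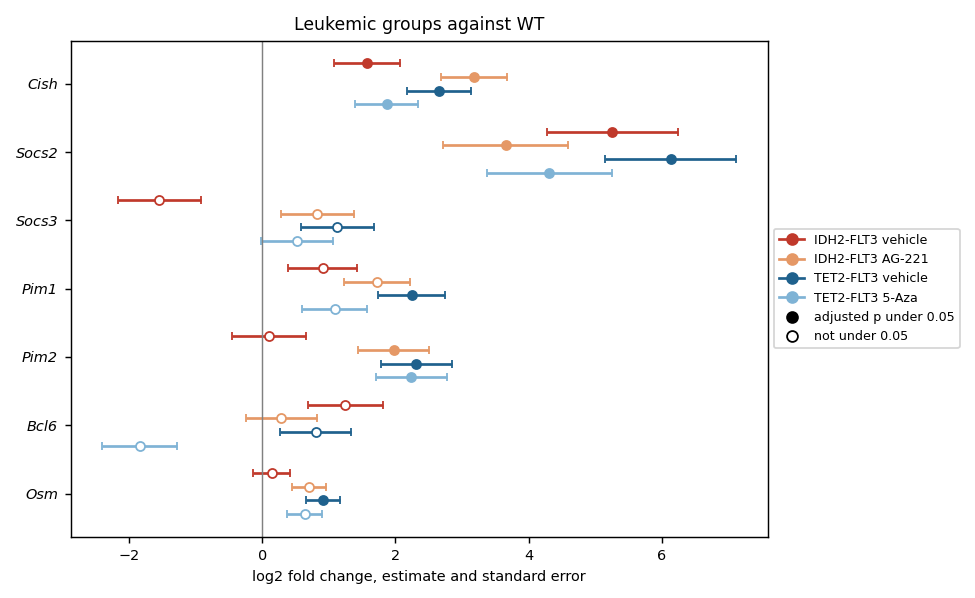
Log2 fold change of each tested member against WT (points, with bars of 1 SE) in the 4 leukemic groups, filled where the adjusted p was under 0.05. Cish and Socs2 are filled in all 4 groups, Pim2 in all but IDH2-FLT3 vehicle, and Socs3 and Bcl6 in none.

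Whether the targets changed under treatment was asked of each drug against vehicle in its own line. AG-221 libraries had higher Socs3, by 2.37 ± 0.64 on the log2 scale (adjusted p = 0.0290), and higher Pim2, by 1.87 ± 0.58 (adjusted p = 0.0471), than IDH2-FLT3 vehicle. These were the 2 members called, both higher, where 4.39% of all accessions were called higher and 5.29% lower. All 4 AG-221 libraries were above all 3 vehicle libraries for Socs3, and 3 of 4 for Pim2. Cish was 1.61 ± 0.51 higher and missed the threshold narrowly (adjusted p = 0.0517). It was called with RLE factors (0.0477), without a filter (0.0197), with a stricter filter (0.04196), by DESeq2 (0.0137) and by limma on log2(FPKM + 1) (0.0139). It was not called without V3-2 and V5-2 (1.18, adjusted p = 0.185) or in a fit of the compared groups alone. The other members were not called: Osm was at 0.56 ± 0.28 without overlap of the groups (adjusted p = 0.191), Pim1 at 0.81 ± 0.53 (0.309), Bcl6 at -0.96 ± 0.57 (0.259) and Socs2 at -1.60 ± 0.80 (0.186). The Socs2 estimate rested on V9, without which it was -0.05 (adjusted p = 0.972). On the accession used, 3 of 4 AG-221 libraries were below every vehicle library of Socs2, but over all 4 accessions only AG8 was (2.16 against 2.78 CPM in V3), and the value was -1.03 (adjusted p = 0.247). The median over the members was 0.81, beside -0.00 over all accessions.

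The calls for AG-221 ended on leaving out single libraries of either group. The Socs3 call ended without V3 (1.90), V3-2 (2.15) or AG1 (2.20), with adjusted p up to 0.137, and without V9 it was 3.53 (adjusted p = 0.00210). For Pim2 the call ended without V3, V3-2, AG1, AG12 or AG13 (1.39 to 1.95, adjusted p up to 0.214), and without V9 the value was 3.56 (adjusted p = 1.004e-04). Cish was called without V9, at 2.98 (adjusted p = 1.95e-04), and Bcl6 was called lower without AG13, at -2.05 (adjusted p = 0.0215). Without V3-2 and V5-2, Socs3 was at 2.14 (adjusted p = 0.108) and Pim2 at 1.48 (adjusted p = 0.178), so that neither was called. A fit of the compared groups alone called neither as well (0.0930 for Socs3 and 0.140 for Pim2).

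Markers of more mature cells also differed between these libraries. The 9 markers of granulocyte-monocyte progenitors, 7 of them counted in every library and Cebpa at 0 in all, summed to 105394 CPM in V3, 57916 in V3-2 and 19982 in V9, against 7136 to 19844 CPM with AG-221 and 2199 to 13073 CPM in WT. The 11 neutrophil markers summed to 25443 CPM in V3, 11108 in V3-2 and 888 in V9, and to 1404 to 23828 CPM with AG-221, so that the groups overlapped, and S100a9 was at 0 in every AG-221 library. The 10 monocyte and macrophage markers, with Ms4a7 at 0 throughout, summed to 10141, 5998 and 2032 CPM in V3, V3-2 and V9, and to 931 to 3049 CPM with AG-221. V3 and V3-2, which had the most progenitor and neutrophil marker RNA among vehicle libraries, were those with the lowest Cish, Pim2 and Socs3. Their part in the result was not tested.

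**Figure D3:**
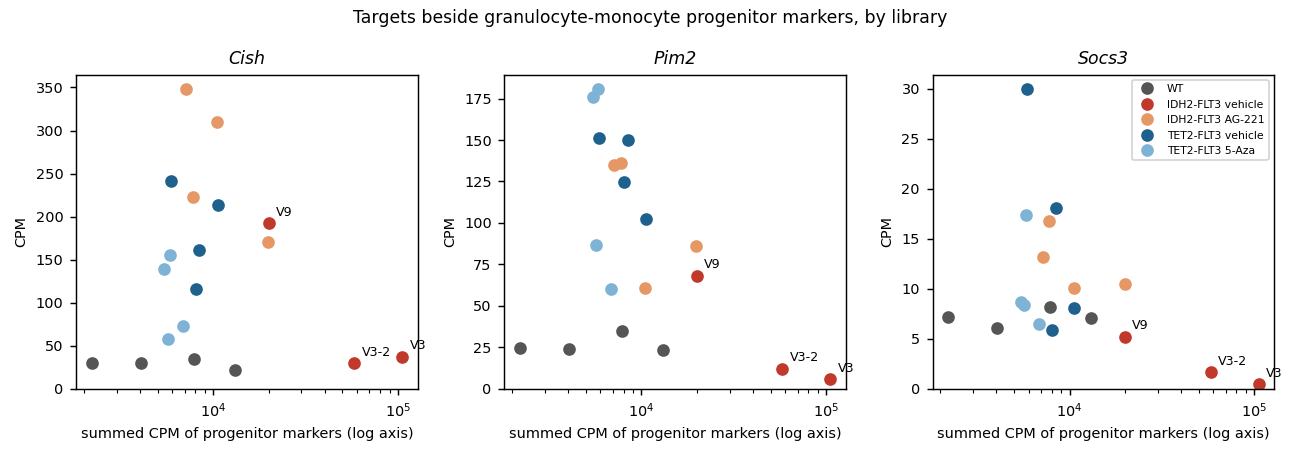
CPM of Cish, Pim2 and Socs3 (linear axis) against the summed CPM of 9 granulocyte-monocyte progenitor markers (log axis), with 1 point per library. V3 and V3-2 lie far to the right at 105394 and 57916 CPM of markers and low on each member. V9 lies near the AG-221 library AG12 for Cish and Pim2, and below it for Socs3 (5.21 against 10.4 CPM).

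With 5-Aza all 7 tested members had lower estimates than in TET2-FLT3 vehicle, and Bcl6 was the 1 member called. It fell by 2.65 ± 0.57 on the log2 scale (adjusted p = 0.0173), from a mean of 26.2 to 4.18 CPM, where 1.45% of all accessions were called lower and 0.431% higher. All 4 treated libraries were below all 4 vehicle libraries. The call ended without AZ10, AZ11, AZ16 or AZ17 (-2.80 to -2.53, adjusted p up to 0.0645) and without V3-2 and V5-2 (-2.29, adjusted p = 0.0533). Limma on log2(FPKM + 1) did not call Bcl6 either (0.0698). Socs2 was -1.82 ± 0.76 with no overlap between the groups, but was not called (adjusted p = 0.312). Pim1 was at -1.15 ± 0.49 (adjusted p = 0.325), which became -0.55 without V3-2 and V5-2. Cish was at -0.79 ± 0.46 (0.505), Socs3 at -0.60 ± 0.54 (0.703) and Osm at -0.28 ± 0.26 (0.715). Pim2 was at -0.07 ± 0.51 (adjusted p = 0.971), with a 95% interval of -1.15 to 1.02 that leaves room for a 2-fold change either way. The median over the members was -0.79, beside -0.05 over all accessions.

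The 8 dendritic cell markers, with Clec9a at 0, were also lower with 5-Aza than in TET2-FLT3 vehicle, with a small overlap. They summed to 428 to 808 CPM in TET2-FLT3 vehicle, 244 to 429 CPM with 5-Aza and 217 to 292 CPM in WT. Unlike Bcl6, they did not fall below the WT range. In IDH2-FLT3 vehicle, the group with the highest mean Bcl6, they summed to 202 to 566 CPM. The 11 neutrophil markers overlapped, at 212 to 2300 CPM in TET2-FLT3 vehicle and 524 to 1771 CPM with 5-Aza. The 10 monocyte and macrophage markers summed to 1038 to 2005 CPM in TET2-FLT3 vehicle, 458 to 949 CPM with 5-Aza and 539 to 1228 CPM in WT, again with Ms4a7 at 0. Their part in the result was not tested.

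**Figure D4:**
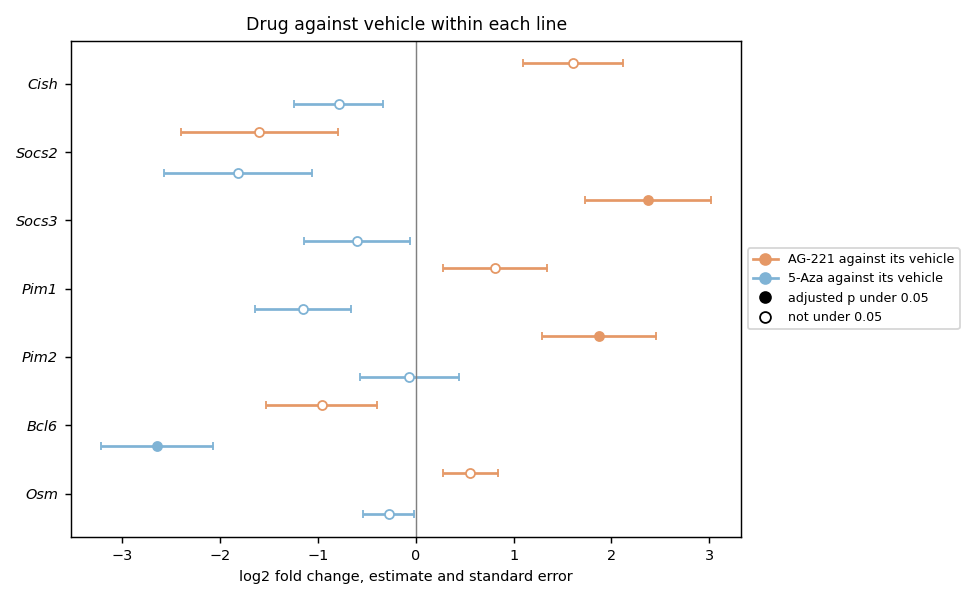
Log2 fold change of each tested member against the vehicle of the same line (points, with bars of 1 SE) for AG-221 and 5-Aza, filled where the adjusted p was under 0.05. Socs3 and Pim2 are filled to the right for AG-221 and Bcl6 is filled to the left for 5-Aza, while Socs2 is left of 0 for both drugs.

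The difference between the drug responses (AG-221 minus its vehicle, less 5-Aza minus its vehicle) was positive for all 7 tested members, and edgeR called 0 of them. Over all accessions edgeR called 0.203% higher and 0.0254% lower. DESeq2 called 2 members, Cish and Socs3, where it called 299 of 11786 accessions higher and 56 lower. At an unadjusted p under 0.05 there were 6 members, for which no share over all accessions was counted. Socs3 differed by 2.98 ± 0.83 (log2, adjusted p = 0.123, 95% interval 1.18 to 4.77) and Cish by 2.39 ± 0.68 (adjusted p = 0.123, 0.93 to 3.86). Pim1 was at 1.97 ± 0.72 (0.213), Pim2 at 1.94 ± 0.76 (0.244), Bcl6 at 1.68 ± 0.80 (0.317), Osm at 0.83 ± 0.38 (0.303) and Socs2 at 0.22 ± 1.10 (0.942). Without V9, Cish (3.76, adjusted p = 2.61e-04), Socs3 (4.14, adjusted p = 0.00456) and Pim2 (3.63, adjusted p = 8.10e-04) were called. Drug, dose, schedule and line all differ between these responses and cannot be told apart.

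The vehicle groups of the lines were then compared directly. Socs3 fell by 2.67 ± 0.65 on the log2 scale (adjusted p = 0.0225) and Pim2 by 2.21 ± 0.59 (adjusted p = 0.0369) in IDH2-FLT3 relative to TET2-FLT3 vehicle, the 2 members called, where 2.35% of accessions were called lower and 1.93% higher. Every IDH2-FLT3 library was below every TET2-FLT3 library for both genes. Osm, at -0.77 ± 0.28, had no overlap either but was not called (adjusted p = 0.127). Pim1 was at -1.33 ± 0.54 (0.164), Cish at -1.08 ± 0.50 (0.224), Socs2 at -0.87 ± 0.80 (0.537) and Bcl6 at 0.45 ± 0.57 (0.665). The Socs3 call ended without V3, V3-2 or V19 (-2.45 to -2.14, adjusted p up to 0.128), and the Pim2 call without V3, V3-2, V1 or V19 (-2.23 to -1.71, adjusted p up to 0.186). Without V3-2 and V5-2, Socs3 was at -2.37 (adjusted p = 0.0965) and Pim2 at -1.79 (0.130). A fit of these groups alone called neither (0.3405 for Socs3 and 0.327 for Pim2). Without V9 the values were -3.83 for Socs3, -3.90 for Pim2 and -2.45 for Cish, which was then called (adjusted p = 7.96e-04). The progenitor markers named above summed to 5892 to 10593 CPM in TET2-FLT3 vehicle, below all 3 IDH2-FLT3 vehicle libraries, and their part in these differences was not tested.

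**Figure D5:**
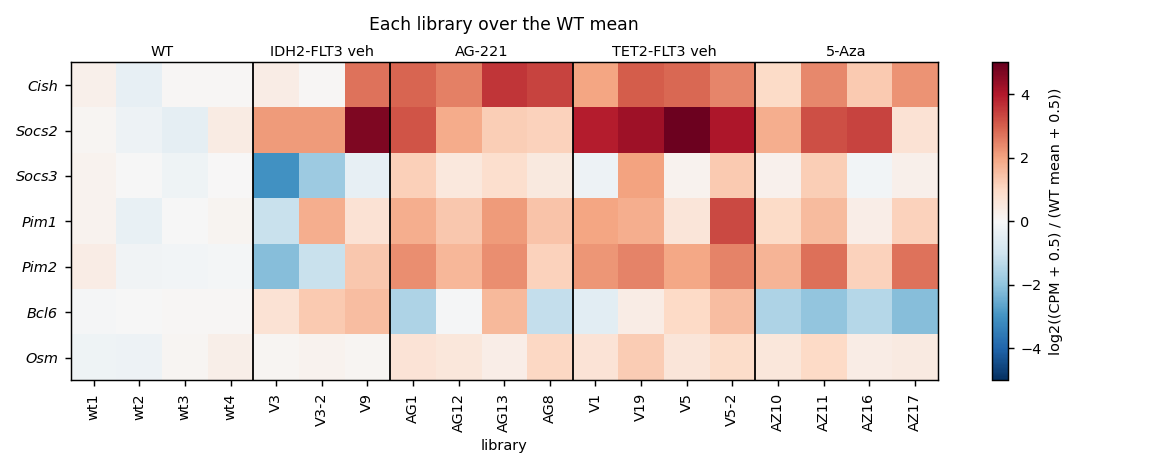
Each tested member in each library as log2 of (CPM + 0.5) over (WT mean CPM + 0.5), with red above and blue below the WT mean, and black lines between the 5 groups. V9 resembles the TET2-FLT3 vehicle libraries for Cish and Socs2, V3 and V3-2 are blue for Socs3 and Pim2, and the 5-Aza libraries are all blue for Bcl6.

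Per length of transcript (FPKM, fragments per kilobase of transcript and library size), the order of the members changed between groups. Pim1 led in WT at 30.3 ± 5.85 FPKM (SD, n = 4), ahead of Cish at 15.2 ± 3.07 and Pim2 at 14.7 ± 2.88. With AG-221, Cish led at 124 ± 39.2 FPKM (n = 4), ahead of Pim1 at 88.9 ± 19.7. In TET2-FLT3 vehicle Pim1 led at 131.5 ± 124 FPKM (n = 4), followed by Cish at 82.6 ± 28.8 and Pim2 at 63.2 ± 19.95. That lead rested on V5-2, without which Pim1 was at 70.6 ± 27.7 FPKM and Cish at 80.4 ± 34.8 (n = 3). Pim2, Pim1 and Cish were close together with 5-Aza, at 59.3 ± 28.5, 55.2 ± 20.6 and 47.4 ± 21.5 FPKM (n = 4). On the accession used, Socs2 remained among the least abundant members throughout, with at most 5.70 ± 2.15 FPKM, in TET2-FLT3 vehicle. That accession held 64.2% of the counts over its 4 accessions, and reads of such genes were poorly represented. Its level relative to members with 1 accession is therefore uncertain.

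The members did not vary as 1 block over the 19 libraries. On log2 CPM the closest pair was Socs3 and Pim2 (Pearson r = 0.84, and 0.92 over the 15 leukemic libraries), followed by Cish and Pim2 (0.79, and 0.73). Bcl6 was unlike the rest, with r from -0.31 to 0.16. Libraries of a group share genotype and treatment, so these values describe the groups as well as the libraries. Among 6996 genes, those most like Pim2 were Podxl (0.96), Epb41l4b (0.95) and Kcnk5 (0.94). Those most like Cish were Echdc3 (0.92), Ncam2 (0.91) and Plxdc2 (0.90), and for Pim1 they were Lfng (0.90), Mdfic (0.89) and Rcan3 (0.85). For Bcl6 they were Lrrk2 (0.94), Tbc1d8 (0.91) and Itgax (0.90), the last also on the dendritic cell marker list, and for Osm they were Lrp12 (0.81), Epb41l4b (0.77) and Prickle1 (0.77).

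Flt3 itself, the receptor gene that carries the duplication, fell in IDH2-FLT3 vehicle, to 155 ± 101 CPM (SD, n = 3) from 408 ± 110 CPM in WT (n = 4), a log2 fold change of -1.40 ± 0.46 (adjusted p = 0.0356). Leaving out V3, V3-2, wt3 or wt4 ended the call (-1.35 to -1.005, adjusted p up to 0.150), as did leaving out V3-2 and V5-2 together (0.0636). The mean of Flt3 was 387 ± 195 CPM in TET2-FLT3 vehicle (adjusted p = 0.926 against WT), 308 ± 84.4 with AG-221 (0.761) and 229 ± 93.9 with 5-Aza (0.323), n = 4 each. Stat5b, with 2 accessions, was at 5.25 ± 1.73 CPM in WT and 2.27 ± 0.700 CPM in TET2-FLT3 vehicle (log2 fold change -1.21 ± 0.46, adjusted p = 0.0924). Stat5a was below 1 CPM in every group, at 0.526 ± 0.241 CPM in WT, and also has 2 accessions. Pim3, the third PIM kinase gene, was at 22.8 ± 3.20 CPM in WT and at group means of 18.7 to 24.6 CPM in leukemic cells, with log2 fold changes against WT between -0.29 and 0.11 and none called.

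A list of 77 other genes of the pathway (receptors and ligands, kinases and adaptors, STAT factors, negative regulators, and survival and growth targets) had 52 tested members, and 23 of the 25 untested ones have several accessions. In IDH2-FLT3 vehicle against WT, 10 rose and 8 fell (19.2% and 15.4% of the list, where 10.1% and 10.4% of all accessions did), with a median of 0.28. In TET2-FLT3 vehicle 3 rose and 3 fell (5.77% each, near the 4.43% and 5.71% of all accessions, median 0.16). With AG-221, 2 rose and 1 fell (3.85% and 1.92%, against 1.04% and 1.67%, median -0.16), and with 5-Aza 2 rose and 1 fell (the same shares, against 0.617% and 1.10%, median -0.05). AG-221 against vehicle had 4 lower, or 7.69% against 5.29% of all accessions, and 0 higher (18 at an unadjusted p under 0.05, and 6 lower and 2 higher by DESeq2). 5-Aza against vehicle had 1 higher (1.92% against 0.431%) and 0 lower (6 unadjusted, and 1 in each direction by DESeq2), and IDH2-FLT3 against TET2-FLT3 vehicle had 1 lower (1.92% against 2.35%) and 0 higher (11 unadjusted, and 3 lower and 2 higher by DESeq2). For the difference between drug responses edgeR called 0, with 8 at an unadjusted p under 0.05 and 0 by DESeq2. Over all 11786 accessions, DESeq2 called 1032 higher and 1060 lower for AG-221 against vehicle, and 130 and 332 for 5-Aza. Between the vehicle groups it called 444 higher and 706 lower. No share over all accessions was counted at an unadjusted p under 0.05.

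Id1, a helix-loop-helix inhibitor of differentiation and itself a STAT5 target, rose in all 4 leukemic groups. It was at 4.22 ± 1.52 CPM in WT, 56.6 ± 9.03 in IDH2-FLT3 vehicle (log2 fold change 3.74 ± 0.42, adjusted p = 1.96e-05) and 55.5 ± 11.6 with AG-221 (3.71 ± 0.41, adjusted p = 2.50e-05). It was at 43.7 ± 11.1 CPM in TET2-FLT3 vehicle (3.37 ± 0.40, adjusted p = 5.33e-05) and 30.7 ± 15.5 with 5-Aza (2.86 ± 0.40, adjusted p = 5.87e-04). These calls held in all 15 or 16 alternatives of each comparison. Csf2rb, the shared beta chain of the receptors for IL-3, IL-5 and GM-CSF, also rose in all 4, from 102 ± 8.66 CPM in WT to means of 224 to 321 CPM, by 1.66, 1.24, 1.27 and 1.14 in IDH2-FLT3 vehicle, TET2-FLT3 vehicle, AG-221 and 5-Aza. The 5-Aza call (adjusted p = 0.0296) ended without wt1, wt2, wt3, wt4, AZ11 or AZ17 (up to 0.109), and by limma on log2(FPKM + 1) (0.0712). Reads of Csf2rb may be split with its near-identical neighbour Csf2rb2, so its level is uncertain.

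Il7r, the interleukin-7 receptor that signals through STAT5 in lymphoid progenitors, fell from 43.6 ± 12.3 CPM in WT to 0.728 ± 0.694 in IDH2-FLT3 vehicle (log2 -5.93 ± 1.20, adjusted p = 0.00214), 3.29 ± 4.51 in TET2-FLT3 vehicle (-3.78 ± 0.94, adjusted p = 0.0159) and 1.39 ± 0.943 with 5-Aza (-4.96 ± 0.9999, adjusted p = 0.0122). The TET2-FLT3 vehicle call ended without wt4 (adjusted p = 0.0509) and the 5-Aza call without AZ10 or AZ17 (up to 0.0603). The B cell markers were lower beside it, at 52.8 to 106 CPM in IDH2-FLT3 vehicle, 48.0 to 104 CPM in TET2-FLT3 vehicle and 71.4 to 145 CPM with 5-Aza, and their part was not tested. Foxo1, a survival-linked transcription factor restrained by AKT, fell by 1.77 ± 0.35, 1.65 ± 0.32 and 1.64 ± 0.32 in IDH2-FLT3 vehicle, TET2-FLT3 vehicle and AG-221 (adjusted p = 0.00186, 0.00298 and 0.00467). In IDH2-FLT3 vehicle the gp130 subunit gene Il6st rose by 3.08 ± 0.56 (adjusted p = 9.05e-04) and Stat6 by 0.98 ± 0.27 (0.0136), whereas Stat4 fell by 0.94 ± 0.28 (0.0222) and Jak1 by 0.82 ± 0.26 (0.0329). The Stat6 call ended without V3 (0.0726), the Stat4 call without wt3, wt4, V3-2 or V9 (up to 0.0875) and the Jak1 call without wt1, wt3, wt4, V3 or V3-2 (up to 0.131). Stat6 was also not called by limma on log2(FPKM + 1) (0.143), nor Jak1 without a filter (0.0945). Without V3-2 and V5-2 the Stat4 (0.0785) and Jak1 (0.0508) calls ended.

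Against IDH2-FLT3 vehicle, AG-221 libraries had lower Il6st, at 16.5 ± 4.66 against 195 ± 162 CPM (log2 -3.56 ± 0.57, adjusted p = 0.00277). A fit of the compared groups alone ended this call (adjusted p = 0.0551). Without V3-2 it held but shrank to -2.70 (adjusted p = 0.0267), and the Il6st rise over WT shrank to 2.21 (adjusted p = 0.0109). Stat6 was lower by 0.95 ± 0.27 (adjusted p = 0.0321), and Socs6, an adaptor of the SOCS family, fell by 0.95 ± 0.25 (0.0275). The Stat6 call ended on leaving out V3, V3-2 or any AG-221 library (up to 0.129), and the Socs6 call without V3, V3-2, AG12 or AG13 (up to 0.141). A fit of the compared groups alone ended both (0.0807 for Stat6 and 0.108 for Socs6). Stat6 was also not called without V3-2 and V5-2 (0.0625) or by limma on log2(FPKM + 1) (0.113), nor Socs6 without a filter (0.0717). Foxo3 was called lower (-3.76 ± 1.13, adjusted p = 0.0416) from 12.8 ± 20.4 CPM in vehicle, and this rested on V3-2, without which the value was -0.03 (adjusted p = 0.992). The Foxo3 call also ended without V3 or any AG-221 library (-4.50 to -3.47, adjusted p up to 0.0954). Socs5 was lower in IDH2-FLT3 than in TET2-FLT3 vehicle by 1.09 ± 0.29 (adjusted p = 0.0366), a call that ended without V3, V3-2 or V19 (up to 0.246). It also ended without V3-2 and V5-2 (0.105), in a fit of the compared groups alone (0.414) and by limma on log2(FPKM + 1) (0.0595).

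Epor and Cdkn1a, below the abundance at which pathway genes were to be named, were added after their values were seen because few genes were called. Epor, the erythropoietin receptor gene, was at 12.1 ± 1.96 CPM in WT (SD, n = 4) and 0.291 ± 0.268 in TET2-FLT3 vehicle (n = 4), a fall of 5.24 ± 0.98 on the log2 scale (adjusted p = 0.00260) in all 16 alternatives. With 5-Aza it was at 4.09 ± 2.24 CPM (n = 4), 3.68 ± 0.94 above vehicle (adjusted p = 0.0435), a call that ended on leaving out any library of either group (3.36 to 4.05, adjusted p up to 0.143). The erythroid markers, a list that includes Epor, summed to 31.5 to 75.0 CPM with 5-Aza and 5.67 to 12.2 CPM in TET2-FLT3 vehicle. Epor alone was at 1.895 to 6.525 and 0 to 0.576 CPM in these groups. The part of the other erythroid markers was not tested. Cdkn1a, which encodes the cell cycle inhibitor p21, was near the detection limit, at 0.0980 ± 0.0369 CPM in WT and 0.856 ± 0.980 in TET2-FLT3 vehicle (3.09 ± 0.80, adjusted p = 0.0206). That call ended without wt2, wt3, wt4 or V5-2 (1.93 to 3.10, adjusted p up to 0.105), and by limma on log2(FPKM + 1) (0.1175). Neither change was particular to this line. In IDH2-FLT3 vehicle against WT, Epor was also called lower (-4.44 ± 1.05, adjusted p = 0.0060). Cdkn1a was called higher there (2.73 ± 0.84, adjusted p = 0.0270).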

How the data were processed

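RNA-seq of 19 libraries was analysed from 2 deposited tables, 1 of raw counts and 1 of FPKM. Per the submitters' processing notes, the counts come from STAR 2.4.0f1 alignments to mm9 and featureCounts of Subread 1.4.5-p1, per RefSeq accession. The deposited FPKM values recompute from those counts, a length per accession and the library total. How reads shared between accessions were treated, and strand, are not given in the sources used here. Libraries were grouped by genotype and treatment as the labels give them. Symbols came from RefSeq (33485 accessions) and GENCODE (188), and 189 unnamed accessions held 3.47% of counts.

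Counts were fitted with edgeR 4.0.16 in R 4.3.3 (filterByExpr, TMM factors from 0.761 to 1.22, quasi-likelihood test, 1 mean per group, all 19 libraries), with Benjamini-Hochberg adjustment over 11830 accessions. Every adjusted p is from this fit unless another tool is named, and intervals of 95% use 14 residual degrees of freedom. The biological coefficient of variation was 43.0%. CPM use the TMM-scaled library sizes, and log2 CPM for likeness a prior count of 2. Alternatives were a stricter filter (5 CPM in 3 libraries) or none, RLE factors, DESeq2 1.42.0, limma 3.58.1 on log2(FPKM + 1), the compared groups alone, summed accessions, leaving out V3-2 and V5-2, and leaving out each library. The fit was tested on simulated data.

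All members were named in each comparison. Of the pathway list, the 4 called genes with the smallest p in each direction were named per comparison, if their mean reached 5 CPM, and the 3 genes most like a member if both had at least 10 CPM. The members, the pathway list and the 10 lists of cell type markers were chosen with earlier results of these data known. 1 of the marker lists is not reported here.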

Additional observations from a re-analysis of the deposited data

Results flagged for a closer look

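Pim2 in wt1, at 34.62 CPM, stood apart from the other WT libraries (23.4 to 24.6 CPM), with a gap of 0.895 of the group's range and so past Dixon's 95% critical value. It was the only such library in 28 groups of 4, where chance gives about 1 in 20.

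IDH2-FLT3 vehicle differed from TET2-FLT3 vehicle for Socs3, by -2.67 on the log2 scale (adjusted p = 0.0225), and for Pim2, by -2.21 (adjusted p = 0.0369). Both calls ended without V3, V3-2 or V19, and without V3-2 and V5-2 together. A fit of these groups alone called neither (0.3405 for Socs3 and 0.327 for Pim2). For Cish, every AG-221 library lay above and every 5-Aza library below the mean of its own vehicle group. The difference of the responses was 2.39 and was not called (adjusted p = 0.123). The same held for Pim1, with a difference of 1.97 (adjusted p = 0.213), but there it rested on V5-2: without it the vehicle mean was 142 CPM, and AZ11 (143 CPM) lay above that.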

How the results depend on the processing

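Of 923 recomputed values over 56 pairs of a member and a comparison, 803 kept their direction and call, 79 lost the call, 27 gained one and 14 changed sign. Only a minority of the pairs was called, and only those can lose a call. Most of the unchanged values belong to pairs that were never called, so these counts do not measure how stable the calls were. On log2(FPKM + 1) there was 1 member called in IDH2-FLT3 vehicle, 1 with AG-221 and 1 with 5-Aza against WT, and 0 with 5-Aza against vehicle. That scale moved the median of all accessions against WT to -0.20, -0.18, -0.12 and -0.16 (IDH2-FLT3 vehicle, TET2-FLT3 vehicle, AG-221, 5-Aza), and the share of calls that were higher from 49.2, 43.7, 38.3 and 35.96% to 20.6, 16.1, 16.95 and 8.89%. For AG-221 against vehicle that share went from 45.3 to 74.8%, and with DESeq2 for 5-Aza against WT to 25.7%. Fitting the compared groups alone, or leaving out V3-2 and V5-2, left 0 members called for AG-221 against vehicle and 0 for IDH2-FLT3 against TET2-FLT3 vehicle, and leaving out V3-2 and V5-2 left 0 for 5-Aza against vehicle. Fitted alone, AG-221 against vehicle had 0 calls among all 10681 accessions, and IDH2-FLT3 against TET2-FLT3 vehicle had 6 higher and 11 lower. For the difference of drug responses, 2 were called without a filter and 2 by DESeq2, where 161 of 21222 and 299 of 11786 accessions were called higher. Leaving out single libraries gave 1 to 3 members called for IDH2-FLT3 vehicle and for AG-221 against WT, 0 to 3 for 5-Aza against WT, AG-221 against vehicle, IDH2-FLT3 against TET2-FLT3 vehicle and the difference, and 0 to 1 for 5-Aza against vehicle. Signs turned on log2(FPKM + 1) for Pim2 (-0.76) and Osm (-0.10) in IDH2-FLT3 vehicle and Bcl6 (-0.30) with AG-221 against WT. The difference of drug responses for Socs2 turned to -0.0855 without V3-2 and V5-2. Over left-out libraries, Pim2 in IDH2-FLT3 vehicle against WT ran from -1.59 to 0.59, Bcl6 with AG-221 against WT from -0.80 to 0.60, Pim2 with 5-Aza against vehicle from -0.29 to 0.16, and the Socs2 difference from -0.59 to 1.77. The cause of these shifts was not tested. The same settings were tried on the named pathway genes after the data had been seen. No paired analysis was possible because the columns of the leukemic groups carry no replicate number from the titles. Low counts limit Socs1, and Socs2 in WT.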
